A study of Mus musculus with 10 samples.

Results

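The cytosolic ribosomal protein genes are described here in CNS-associated macrophages, which line the meninges and vessels around the brain, in mice with and without an Mrc1-CreERT2 allele. Members were chosen by symbol alone: Rpl or Rps followed by a digit, plus Rplp0, Rplp1, Rplp2 and Rpsa. Of 410 matching symbols, 307 with the suffix -ps, 9 kinase genes named Rps6k and 3 genes without a count were dropped. This left 91 genes of 53546 in the table, 22778 of which were counted in at least 1 library. They comprise 77 genes with the symbol of a ribosomal protein (31 of the small and 46 of the large subunit), called canonical here, and 14 like-named genes such as Rps27l and Rpl39l. A filter on low counts left 14023 genes for testing, and 89 members passed it. Rps23rg1 and Rps3a3 did not. Fau, which encodes a ribosomal protein under another name, lies outside the symbol rule and is given separately.

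Bulk RNA sequencing was done on macrophages sorted by fluorescence-activated cell sorting from untreated C57BL/6N mice aged 6 to 8 weeks, with 500 pg of total RNA per library. The homozygous group (Mrc1-CreERT2/Mrc1-CreERT2) had 4 libraries, the heterozygous group (Mrc1-CreERT2/wt) had 3, numbered 1, 2 and 4, and the wild-type group had 3. CreERT2 is a Cre recombinase that acts on loxP sites once tamoxifen or a related ligand binds it, and Mrc1 encodes the mannose receptor, CD206, a surface protein of border macrophages. All libraries carry the same batch label, and each title holds a number of its own. The labels do not say in words that each library came from a separate mouse, so p-values measure the spread between these libraries.

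Ribosomal proteins and ribosomal RNA form the small subunit, which reads the mRNA, and the large subunit, which joins amino acids. Cells make the proteins in matched amounts, and most of their mRNAs begin with a run of pyrimidines, the 5′ terminal oligopyrimidine (TOP) tract, through which growth signalling by mTOR and the RNA-binding protein Larp1 controls their translation and stability. Macrophages adjust ribosome production when they grow or are activated.

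Start-site sequences are shown for genes with and without the pyrimidine run CTTTCC near the annotated start, and for like-named genes beside the canonical gene they resemble. They come from RefSeq on GRCm38.p6, while for the counts no build is named in the sources used here. Each is 60 bases, 5′ to 3′ on the strand of the gene, from 40 bases before the annotated start to 20 from the start on. Capitals mark CTTTCC.
Rpl28 (chr7:4792925-4792984, plus strand): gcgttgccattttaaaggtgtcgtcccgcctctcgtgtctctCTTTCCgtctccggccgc
Rpl38 (chr11:114668540-114668599, plus strand): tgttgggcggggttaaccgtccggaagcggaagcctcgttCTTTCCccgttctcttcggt
Rpl18 (chr7:45718031-45718090, plus strand): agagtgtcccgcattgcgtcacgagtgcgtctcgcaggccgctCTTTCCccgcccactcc
Rps10 (chr17:27635225-27635284, minus strand): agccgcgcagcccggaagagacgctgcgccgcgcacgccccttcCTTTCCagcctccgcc
Rplp0 (chr5:115559427-115559486, plus strand): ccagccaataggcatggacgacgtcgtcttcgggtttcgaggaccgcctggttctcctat
Rps12 (chr10:23787190-23787249, minus strand): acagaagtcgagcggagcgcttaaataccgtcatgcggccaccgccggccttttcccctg
Rps27 (chr3:90213629-90213688, minus strand): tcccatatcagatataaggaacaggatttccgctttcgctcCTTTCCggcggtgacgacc
Rps27rt (chr9:114982720-114982779, minus strand): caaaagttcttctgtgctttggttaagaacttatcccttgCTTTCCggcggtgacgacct
Rps27l (chr9:66946046-66946105, plus strand): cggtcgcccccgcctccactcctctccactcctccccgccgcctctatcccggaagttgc
Rpl39 (chrX:37085203-37085262, minus strand): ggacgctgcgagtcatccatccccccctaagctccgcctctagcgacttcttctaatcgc
Rpl39l (chr16:10170188-10170247, plus strand): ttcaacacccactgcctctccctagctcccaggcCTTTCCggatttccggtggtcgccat
In Rpl28, Rpl38, Rpl18 and Rps10 the capitals start at position 3, 1, 4 and 5, counted from 1 at the annotated start. The Rps27 and Rps27rt windows share the run ctttccggcggtgacgacc of 19 bases, while the longest run that Rps27 shares with Rps27l is 5 bases and that of Rpl39 with Rpl39l is 6.

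The RefSeq table held 78 start sites for 67 of the 91 members, 57 of them canonical. CTTTCC stood on the strand of the gene in the 60-base window of 13 of the 67. This exact sequence misses other pyrimidine runs, such as ccttttcccct near the end of the Rps12 window. The 13 are therefore not a count of genes with a TOP tract. Searched on both strands in the 100 bases around the start, CTTTCC was present in 33.3% of the 57 canonical genes and in 10.3% of all 27025 genes of the table. CTCTTTCC, which contains CTTTCC, was present in 12.3% against 1.03%. In the whole 300 bases, CCGGAAG, a motif of ETS factors, was present in 42.1% against 9.93%, GGGCGG in 61.4% against 38.2%, and AAGATGG, a motif of YY1, in 15.8% against 7.28%. TATAAA was present in 10.5% against 15.7% there, and in 7.02% against 5.77% in the 100 bases around the start. The canonical genes thus held each of the other motifs more often than the genes of the table did, while the direction for TATAAA differed between windows. This is a description of the sequences and not of factor binding.

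Libraries held 22986972 to 36575446 counts, and replicates of each genotype differed by far more than counting noise (chi-square per gene 91.7 to 213). Mrc1 itself, in counts per 1000000 (CPM), lay between 441 and 542 in the homozygous group, between 1985 and 2286 in the heterozygous group and between 3065 and 3748 in the wild-type group. The 15 markers of the labelled cell type were each counted in 10 of 10 libraries and had sums of 36376 to 36958 CPM (homozygous), 31587 to 35436 CPM (heterozygous) and 30597 to 34348 CPM (wild type). Mrc1 is 1 of these 15, so the sums include its own differences between genotypes. The 10 microglia markers summed to 6736 to 8843, 8978 to 11747 and 8130 to 15013 CPM in the same order. The 9 monocyte markers, 2 of them at 0 throughout, summed to 5.72 to 28.1, 49.1 to 71.1 and 75.9 to 206 CPM, and the 8 B cell markers to 270.0 to 436, 364 to 480.4 and 503 to 772 CPM. Other sums differed by single libraries. The 3 choroid plexus markers summed to 340 CPM in wild-type replicate 1, to 1.65 and 0 in replicates 2 and 3, to 0 to 67.0 in homozygous and to 0.03 to 111 in heterozygous libraries. The 5 erythroid markers summed to between 0.09 CPM in heterozygous replicate 2 and 901 CPM in homozygous replicate 3. The part that these shifts in other cell types play in the results below was not tested. In bulk RNA, fewer cells of a type and less RNA per cell cannot be told apart.

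The 91 genes took up between 1.07% and 1.86% of all counts. Their CPM, scaled with trimmed-mean-of-M-values (TMM) factors, summed to 10627, 12699, 13494 and 15408 in homozygous replicates 1 to 4, to 14369, 18542 and 15324 in heterozygous replicates 1, 2 and 4, and to 16581, 12826 and 12696 in wild-type replicates 1 to 3. The means were 13057 ± 1979 (SD, n = 4), 16079 ± 2186 (n = 3) and 14034 ± 2207 (n = 3). The genotypes overlapped, and the highest library was heterozygous replicate 2 and the lowest homozygous replicate 1. The ratio of summed small-subunit to large-subunit CPM ran from 0.797 in wild-type replicate 3 to 0.853 in homozygous replicate 2, so the subunits kept nearly the same proportion while their total moved.

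**Figure D1:**
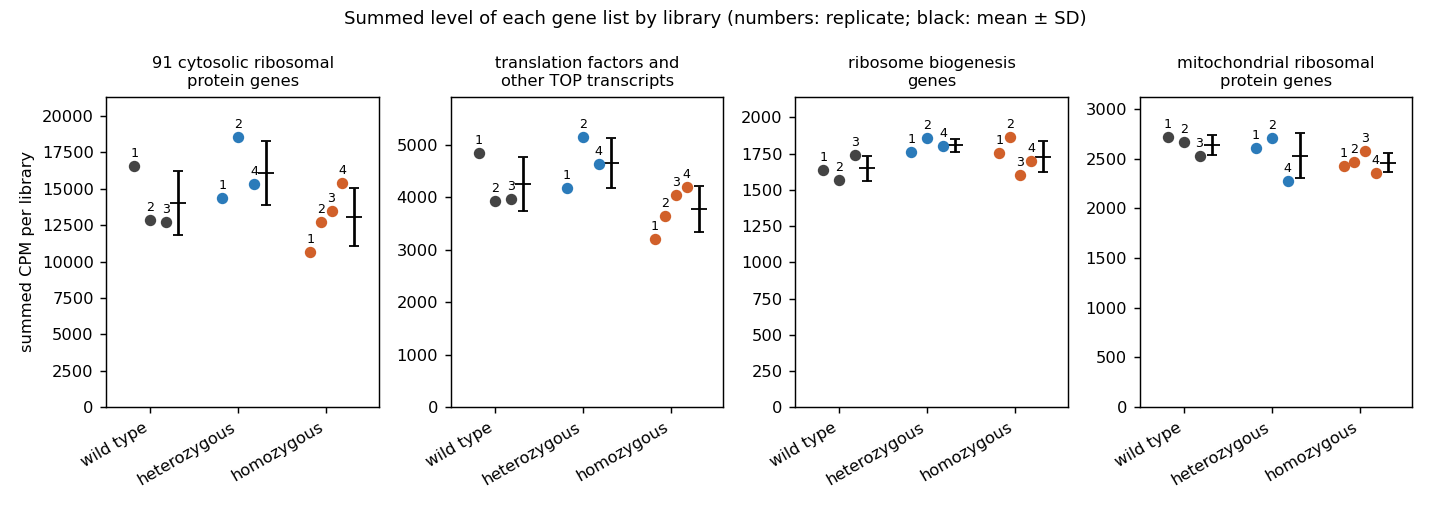
Summed CPM per library (y axis, from 0) for the 91 cytosolic ribosomal protein genes and for 3 other gene lists, by genotype; each point is a library labelled with its replicate number, and black marks give mean ± SD. For the ribosomal protein genes the libraries run from 10627 to 18542 and the genotypes overlap; the translation factors follow the same order of high and low libraries more closely than the ribosome biogenesis and mitochondrial ribosomal protein genes do.

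Per length of mRNA, the canonical genes differed 73.6-fold, around a median of 207 CPM per kb. Lengths are those of GENCODE vM21, which also served to see how much of each mRNA occurs in transcripts under other gene names. The highest were Rps29 at 1609, Rps27 at 892, Rpl32 at 744, Rpl37a at 737 and Rpl41 at 637 CPM per kb, all small proteins. The lowest canonical genes were Rpl24 at 21.8, Rpl23a at 24.7, Rpl13a at 27.0, Rps20 at 34.8 and Rpl5 at 42.6 CPM per kb. The annotated mRNAs of Rpl5 and Rps20 have 2045 and 3706 bases, against 677 for Rpl24. Over all tested members, the 5 lowest were like-named: Rpl6l at 0.433, Rpl39l at 0.799, Rpl32l at 1.73, Rps3a2 at 7.97 and Rps27rt at 8.99 CPM per kb. The small-subunit median was 220.2 and the large-subunit median 166 CPM per kb.

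Ribosomal protein genes have many near-identical copies in the genome. In the median canonical mRNA, 61.2% of all 50-base stretches also occurred in a transcript of another annotated gene, from 0% to 98.6%, the value of Rps27. Stretches were matched on either strand to any transcript under another gene name, so genes at the same place count as well as copies. Of Rps10, for example, 92.4% was shared, and 90.6% with RPS10-NUDT3. The share is therefore not a measure of copies alone. The sources used here do not name how reads fitting several genes were counted, and the level of each gene is uncertain to that extent. The median level was 202 CPM per kb in the 51 genes with 50% or more of shared stretches, 237 in the 18 genes with 25 to 50% and 170 in the 8 genes below. The median of the most shared genes lay between those of the other classes. Highly shared genes stood at both ends of the range: Rps27 was high at 98.6% while Rpl24 and Rpl23a were low at 81.7% and 85.7%. The part of sharing in these levels was not tested.

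**Figure D2:**
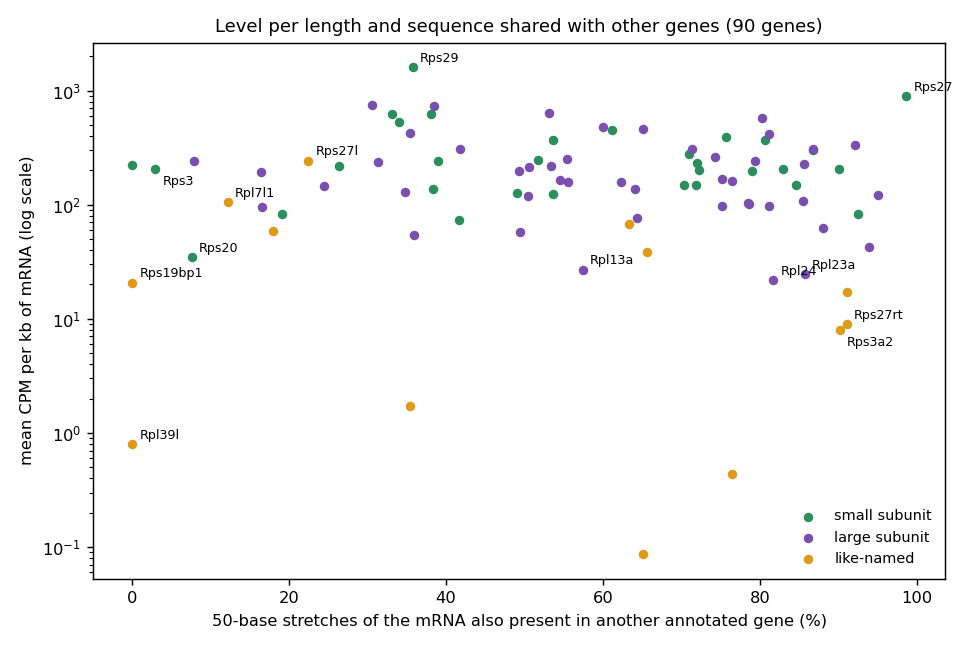
Mean CPM per kb of mRNA over 10 libraries (y axis, log scale) against the percentage of 50-base stretches of the mRNA that also occur in another annotated gene (x axis), for 90 members with an annotated transcript; colours separate small-subunit, large-subunit and like-named genes. Canonical genes lie between 21.8 and 1609 CPM per kb, low ones at low (Rps20) and at high sharing (Rpl24), and every point below 20 is a like-named gene.

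Homozygous against heterozygous libraries gave the widest gap, with no member passing the test. The median log2 fold change of the 89 members was -0.30 (0.01 over all genes), and 87 of 89 were fitted lower in homozygous libraries, among them 77 of 77 canonical genes; over all genes 49.1% were fitted lower. At an adjusted p under 0.05, edgeR's quasi-likelihood test called 0 members, against 0.0214% of all genes, and DESeq2 and limma-voom also called 0. At an unadjusted p under 0.05, 12 members were lower by edgeR (6 small, 6 large) where 2.20% of all genes were, 12 passed by DESeq2 and 11 by limma-voom. The groups did not overlap, with all 4 homozygous libraries below all 3 heterozygous ones, for 16 members, against 3.72% of all genes. The members moved together from library to library, so these are not 12 or 16 separate results. Without heterozygous replicate 2 the median was -0.19 and the count at an unadjusted p under 0.05 was 0. Without homozygous replicate 1, 2, 3 or 4 that count was 3, 6, 6 and 27. In all 3 comparisons, shares over all genes come from the edgeR fit of all 10 libraries with genotype as its only term. None is given for DESeq2, limma-voom or fits with a library left out, so the counts from those cannot be set against one. Rps4l and Rpl39l were the 2 members fitted higher.

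In the small subunit, Rps12 had the smallest p. Its level was 71.8, 79.8, 98.5 and 99.8 CPM in homozygous, 118, 145 and 118 in heterozygous and 118, 85.6 and 86.4 in wild-type libraries, replicates in the order given above. All homozygous values lay below all heterozygous ones, and wild-type replicate 1 lay in the heterozygous range while replicates 2 and 3 lay in the homozygous one. The log2 fold change was -0.54 (SE 0.18), with a p of 1 in edgeR once adjusted by Benjamini-Hochberg.

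Rps21 was at 56.3, 77.7, 77.0 and 79.8 CPM in homozygous, 90.5, 114 and 103 in heterozygous and 112, 80.9 and 76.5 in wild-type libraries, with homozygous replicate 1 apart and low. The groups did not overlap, at a log2 fold change of -0.50 (SE 0.19). Rps13 was at 85.2, 108, 106 and 119 CPM in homozygous, 148, 158 and 136 in heterozygous and 156, 116 and 88.5 in wild-type libraries. Its homozygous libraries all lay lower, at a log2 fold change of -0.50 (SE 0.19), and its wild-type libraries spanned both groups.

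Rps27a, made as a fusion with ubiquitin, was at 106, 122, 141 and 136 CPM in homozygous, 145, 183 and 172 in heterozygous and 198, 139.8 and 134 in wild-type libraries. Its groups did not overlap at a log2 fold change of -0.40 (SE 0.17). Fau, whose product joins a ubiquitin-like part to a small-subunit protein, was at 154, 161, 165 and 175 CPM in homozygous, 176, 239 and 179 in heterozygous and 212, 155 and 156 in wild-type libraries, and the homozygous libraries again all lay below the heterozygous ones.

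Among other small-subunit genes of known roles, Rps6, the substrate of S6 kinase, was at 115, 117, 127 and 137 CPM in homozygous, 144, 149.9 and 132 in heterozygous and 133, 128 and 119 in wild-type libraries. The groups overlapped, at a log2 fold change of -0.19 (SE 0.12). Rps19 and Rps14, whose loss in humans underlies forms of anaemia, had log2 fold changes of -0.26 and -0.19. Rps3, which lines the entry of the mRNA channel, and Rps2 had -0.16 and -0.20. For Rpsa, also known as the laminin receptor, the levels were 175, 179, 188 and 207 CPM in homozygous and 212, 227 and 208 in heterozygous libraries, which were separated by less than 2 CPM. The X-linked Rps4x had a log2 fold change of -0.36. Each of these genes had an adjusted p of 1 in edgeR.

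In the large subunit, Rpl5 and Rpl11 carry the 5S rRNA into the ribosome and bind Mdm2 when assembly fails. Rpl5 was at 49.6, 79.7, 76.2 and 99.6 CPM in homozygous, 107, 105 and 114 in heterozygous and 89.1, 69.4 and 82.1 in wild-type libraries. Its homozygous libraries lay below its heterozygous ones at a log2 fold change of -0.51 (SE 0.22), and homozygous replicate 1 was the lowest of all. Rpl11 was at 103, 124, 133 and 126 CPM in homozygous, 111, 185 and 142 in heterozygous and 178, 116 and 107 in wild-type libraries. Its groups overlapped at a log2 fold change of -0.27 (SE 0.22), and heterozygous replicate 2 and wild-type replicate 1 were the high libraries.

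Rpl3, close to the site of peptide bond formation, was at 216, 252, 271 and 329 CPM in homozygous, 324, 423 and 316 in heterozygous and 377, 295 and 294 in wild-type libraries at a log2 fold change of -0.41 (SE 0.17). Homozygous replicate 4 lay within the heterozygous range, so the groups overlapped. Rpl10, which joins the large subunit late in its assembly, had a log2 fold change of -0.19, Rpl22 -0.34 and Rpl26, which binds p53 mRNA, -0.21. Rpl38, needed for the translation of Hox mRNAs in the embryo, was at 66.8, 88.1, 78.9 and 89.7 CPM in homozygous and 93.7, 105 and 96.3 in heterozygous libraries, which did not overlap. Rpl13a, which in macrophages can leave the ribosome and block the translation of inflammatory mRNAs, was at 19.4, 24.5, 28.4 and 27.8 and 29.1, 34.7 and 31.9 CPM, again without overlap.

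The P stalk, which recruits elongation factors to the large subunit, is built from Rplp0, Rplp1 and Rplp2. Rplp0 was at 351, 384.6, 402 and 480.2 CPM in homozygous, 441, 532 and 441 in heterozygous and 411, 359.9 and 412 in wild-type libraries. Homozygous replicate 4 stood above heterozygous replicates 1 and 4, and the log2 fold change was -0.22 (SE 0.13). For Rplp1 it was -0.33 (SE 0.20) and for Rplp2 -0.31 (SE 0.19), so all 3 stalk genes were fitted lower without passing the test (adjusted p 1 in edgeR).

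**Figure D3:**
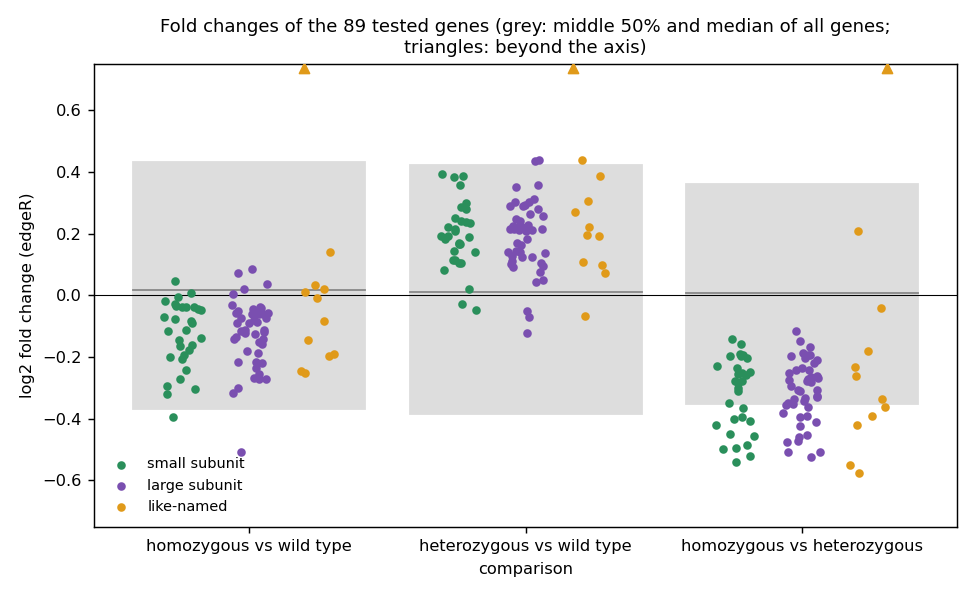
edgeR log2 fold changes (y axis) of the 89 tested members in the 3 comparisons (x axis); each point is a gene, coloured by class, grey boxes hold the middle 50% of all 14023 genes with their median as a line, and the triangle is Rpl39l, beyond the axis. The members cluster below 0 in homozygous against heterozygous libraries (median -0.30), near -0.11 in homozygous against wild type and near 0.21 in heterozygous against wild type; most lie inside the grey boxes, apart from a part of the members in the first of these.

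The 3 comparisons share libraries, so their values are given side by side and not as independent results. Homozygous against wild-type libraries gave a median of -0.11 (0.02 over all genes), with 77 of 89 members fitted lower against 48.9% of all genes. edgeR called 0 members against 0.0642% of all genes, and DESeq2 and limma-voom called 0. At an unadjusted p under 0.05 by edgeR, 0 members were lower, against 2.96% of all genes. The 1 member that was higher was Rpl39l, where 639 of 14023 genes were. DESeq2 gave 1 member and limma-voom 0 in either direction. In 2 members, Rpl19 and Rpl24, the homozygous libraries all lay lower, against 3.57% of all genes. The direction of this shift depended on single libraries: without wild-type replicate 1 the median turned to 0.05 with 30 of 89 fitted lower, and without homozygous replicate 1 it was -0.01 with 47 fitted lower. Without homozygous replicate 4 the count at an unadjusted p under 0.05 was 5, and without wild-type replicate 1 or 2 it was 0.

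Rpl19 was at 138, 156, 170.5 and 173 CPM in homozygous, 177, 236 and 189 in heterozygous and 201, 181 and 182 in wild-type libraries. The homozygous values lay below the wild-type ones by a margin smaller than the spread within either group, at a log2 fold change of -0.24 (SE 0.14) and an adjusted p of 0.778 in edgeR. Rpl24, a late-joining large-subunit protein, was at 9.73, 11.6, 13.2 and 13.2 CPM in homozygous, 12.9, 19.9 and 16.5 in heterozygous and 21.6, 15.6 and 13.8 in wild-type libraries. Of the smallest p values downward, the log2 fold changes were -0.32 (SE 0.17) for Rps27a, -0.39 (SE 0.21) for Rps4x and -0.27 (SE 0.17) for Rpl3, with adjusted p between 0.736 and 0.843. Rps4x was at 146, 149, 163 and 208 CPM in homozygous, 166, 256 and 221 in heterozygous and 288, 177 and 191 in wild-type libraries, where wild-type replicate 1 stood well above the other wild-type libraries. Of the 12 members fitted higher, those with the smallest p after Rpl39l were Rpl35a (0.08), Rpl26 (0.07), Rps4l (0.14) and Rps14 (0.05), each of which changed sign when a library was left out.

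Heterozygous against wild-type libraries gave a median of 0.21 (0.01 over all genes), with 83 of 89 fitted higher against 50.7% of all genes. The number called was 0 by edgeR, DESeq2 and limma-voom, and 0% of all genes were called by edgeR. At an unadjusted p under 0.05, 1 member, Rpl39l, was higher by edgeR, against 3.42% of all genes, and 0 members passed by DESeq2 and limma-voom. The heterozygous libraries all lay higher in 4 members, Rplp0, Rpl5, Rpl35a and Rps14, against 5.43% of all genes. As shares of 89 members, both counts lie below those over all genes. Without heterozygous replicate 2 the median was 0.07 with 24 of 89 fitted lower, and without wild-type replicate 1 it was 0.31 with 7 at an unadjusted p under 0.05. Leaving out wild-type replicate 2 or 3 gave medians of 0.13 and 0.14, each with 0 at that threshold. That count was 2 without heterozygous replicate 1, and 0 without heterozygous replicate 2 or 4 or without homozygous replicate 2 or 3, which enter through the shared spread.

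By size of p, Rps12 came after Rpl39l, at a log2 fold change of 0.39 (SE 0.20), followed by Rplp0 at 0.26 (SE 0.14), Rpl5 at 0.44 (SE 0.23) and Rpl31 at 0.43 (SE 0.24); adjusted p ran from 0.791 to 0.811 in edgeR. Rpl31 was at 56.7, 82.0, 71.3 and 82.7 CPM in homozygous, 83.3, 124 and 97.5 in heterozygous and 89.8, 56.4 and 79.5 in wild-type libraries, with wild-type replicate 1 inside the heterozygous range. Those fitted lower with the smallest p were Rpl10a (-0.12), Rpl21 (-0.07), Rps16 (-0.05), Rps4l (-0.07) and Rps4x (-0.03).

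The members moved together between libraries, across and within genotypes. Heterozygous replicate 2 was the highest of the 10 libraries for 57 of 77 canonical genes, against 9.06% of all tested genes. Homozygous replicate 1 was the lowest for 59 of 77, against 16.0% of all tested genes. Against each gene's own mean, the median canonical gene was at 0.745, 0.906, 0.960 and 1.10 times in homozygous replicates 1 to 4, at 1.003, 1.34 and 1.09 times in heterozygous replicates 1, 2 and 4, and at 1.18, 0.920 and 0.908 times in wild-type replicates 1 to 3. The homozygous libraries differed among themselves by more than the genotype means did. The titles carry the letter m for replicates 1 and 2 of each genotype and f for the others. Homozygous libraries with m all lay below those with f, an order that neither of the other genotypes showed. The SD of log2 CPM over the 10 libraries had a median of 0.27 in canonical genes, and of 0.14 once the library's median deviation had been subtracted.

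Mitochondrially encoded mRNA had the same lowest and highest library. The 13 protein-coding genes, 8 of them tested, summed to 2591, 3259, 3522 and 4101 CPM in homozygous, 3199, 5211 and 4879 in heterozygous and 5062, 3555 and 3134 in wild-type libraries. Since mt-Co2, mt-Atp8, mt-Atp6, mt-Co3 and mt-Nd4l had next to no counts, as given at the end, these sums rest on the other genes. The depth of homozygous replicate 1 and heterozygous replicate 2, the extremes, was 27358042 and 32326603 counts. The 11 handling stress genes, which respond to cell isolation, summed to 1085, 779, 639 and 866 CPM in homozygous, 1112, 1318 and 787 in heterozygous and 1025, 1147 and 776 in wild-type libraries. Heterozygous replicate 2 was their highest library too, while homozygous replicate 1 was the highest of its group. In homozygous against heterozygous libraries their median log2 fold change was -0.50, with 9 of 11 fitted lower, 0 called by edgeR and 2 at an unadjusted p under 0.05. These 2 were lower, where 2.20% of all genes were. The part of handling, RNA quality, cell state and depth in this common movement was not tested.

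**Figure D4:**
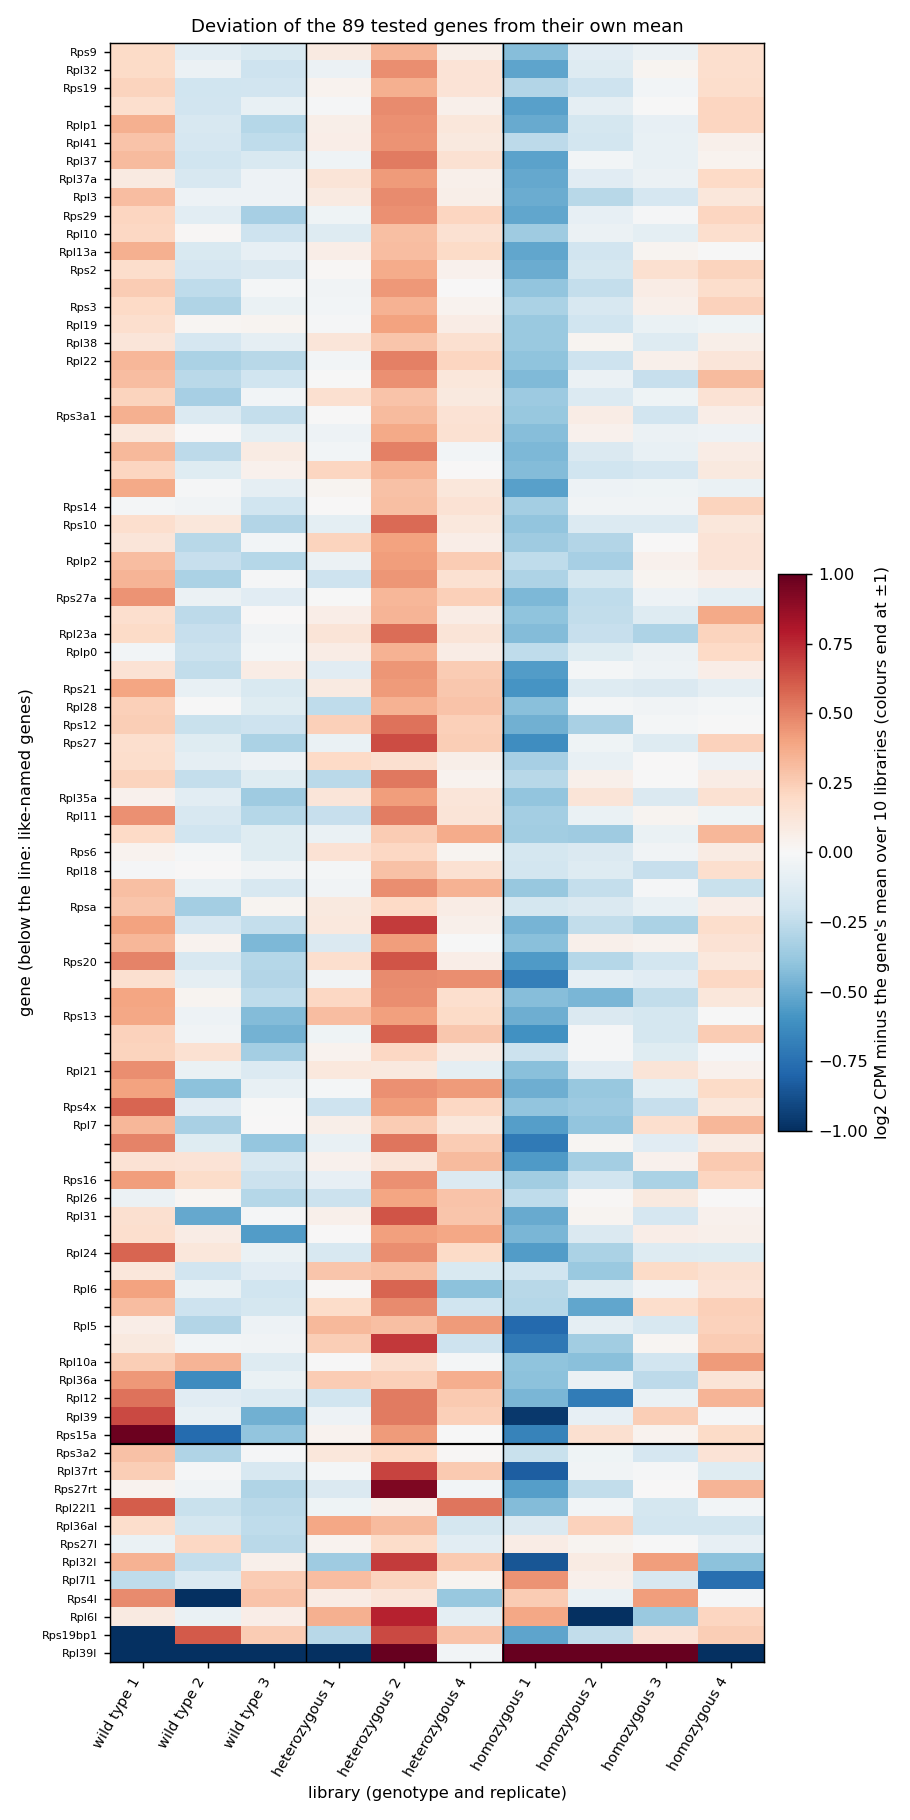
Deviation of each of the 89 tested genes (rows) from its own mean log2 CPM in the 10 libraries (columns), red above and blue below, with colours ending at ±1; canonical genes are ordered from the closest to the common movement to the furthest, and like-named genes stand below the line; row labels are given for genes described in the text. Heterozygous replicate 2 is red and homozygous replicate 1 blue for nearly all canonical genes.

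Rps9 kept closest to the common movement, at 345, 429.6, 446 and 522 CPM in homozygous, 495, 586 and 483 in heterozygous and 529, 431 and 418 in wild-type libraries. Its deviation after subtraction had an SD of 0.05 on the log2 scale, followed by Rpl32 at 0.06 and Rps19 at 0.07. Furthest among canonical genes was Rps15a, at 47.9, 85.0, 77.9 and 86.7 CPM in homozygous, 78.0, 102 and 75.6 in heterozygous and 150.0, 44.6 and 57.8 in wild-type libraries. Wild-type replicate 1 stood at more than the sum of the other wild-type libraries for this gene. Rpl39, a short protein lining the exit tunnel, was at 28.6, 52.9, 66.2 and 55.4 CPM in homozygous, 53.9, 80.1 and 66.1 in heterozygous and 88.6, 53.0 and 40.1 in wild-type libraries, and homozygous replicate 1 was its low library. For Rpl12, part of the base of the stalk, the low library was homozygous replicate 2, at 50.3, 42.6, 65.8 and 87.1 CPM in homozygous, 60.1, 99.0 and 82.7 in heterozygous and 100.4, 63.8 and 62.6 in wild-type libraries.

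The like-named genes, some of them paralogs of a canonical gene, had a median SD of 0.39, and of 0.30 after subtraction of the canonical movement. Low counts widen this SD, and Rpl6l had 4 to 21, Rpl32l 9 to 36 and Rpl39l 0 to 46 counts per library. Among those with far more counts, the SD was 0.14 in Rps27l and 0.25 in Rpl36al. It was 0.33 in Rpl22l1, 0.35 in Rpl7l1, 0.48 in Rps4l and 0.55 in Rps19bp1, against the canonical median of 0.27. Rps27l, a paralog of Rps27 that p53 induces, was at 127, 123, 121 and 114 CPM in homozygous, 124, 138 and 113 in heterozygous and 116, 139 and 101 in wild-type libraries. It was nearly level, and homozygous replicate 1 was above the median library. Its parent Rps27 was at 195, 290.4, 274 and 351 CPM in homozygous, 286, 471 and 356 in heterozygous and 337, 276 and 240.5 in wild-type libraries, with the low and high libraries of the other canonical genes. Per kb, Rps27l reached 244 CPM against 892 for Rps27. The run of 19 bases that the Rps27rt window shares with that of Rps27 lies wholly from the annotated start on, not before it. Rps27rt was at 2.18, 2.72, 3.25 and 4.10 CPM in homozygous, 2.92, 6.22 and 3.15 in heterozygous and 3.30, 3.15 and 2.62 in wild-type libraries, and 91.1% of its 50-base stretches occur in other genes. It had the same high library as Rps27.

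Rpl7l1, a paralog of Rpl7 found in ribosome precursors, was at 182, 139, 119.9 and 79.2 CPM in homozygous, 166, 156 and 136 in heterozygous and 112, 121 and 159 in wild-type libraries. Within the homozygous group it was highest in replicate 1, where canonical genes were lowest, and lowest in replicate 4, where they were highest. Rpl7 was at 169.8, 189, 279.5 and 313 CPM in homozygous, 258, 295 and 268 in heterozygous and 312, 198 and 249 in wild-type libraries. Rps4l, named after Rps4x, was at 52.9, 42.4, 59.1 and 43.9 CPM in homozygous, 46.7, 48.1 and 33.9 in heterozygous and 61.3, 19.8 and 53.9 in wild-type libraries, and wild-type replicate 2 was apart and low. Rps19bp1, a binding partner of Rps19 and not itself a ribosomal protein, was at 11.3, 13.8, 18.01 and 19.4 CPM in homozygous, 13.5, 25.8 and 19.9 in heterozygous and 7.32, 25.01 and 19.5 in wild-type libraries, with a low value in wild-type replicate 1.

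Rpl22l1, a paralog of Rpl22, was at 15.3, 20.4, 18.3 and 20.4 CPM in homozygous, 20.1, 21.5 and 30.1 in heterozygous and 31.5, 17.7 and 17.2 in wild-type libraries, and Rpl22 at 51.4, 58.9, 70.2 and 74.1 CPM in homozygous, 66.5, 96.6 and 78.9 in heterozygous and 85.6, 54.6 and 56.2 in wild-type libraries. Per kb the paralog reached 38.5 CPM. Rpl36al was at 31.8, 41.2, 31.0 and 30.9 CPM in homozygous, 46.1, 43.9 and 31.2 in heterozygous and 39.8, 31.1 and 29.5 in wild-type libraries, and its close relative Rpl36a at 38.0, 48.6, 42.1 and 55.3 CPM in homozygous, 60.3, 59.7 and 65.2 in heterozygous and 68.1, 32.8 and 48.4 in wild-type libraries. Both pairs overlapped between genotypes, apart from Rpl36a, whose homozygous libraries all lay below the heterozygous ones.

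Rpl39l, a paralog of Rpl39 known from the testis, was the only member without a count in a whole genotype among those tested. It had 44, 46, 23 and 0 counts in homozygous, 0, 24 and 3 in heterozygous and 0, 0 and 0 in wild-type libraries. It passed the filter on low counts only through homozygous replicates 1, 2 and 3 and heterozygous replicate 2, where it is high. Its folds and p-values rest on those same values and are no separate support for a difference. Against 3 counts over the wild-type group it was at least 27.0-fold higher in homozygous and at least 9.69-fold higher in heterozygous libraries. Heterozygous replicate 2 held 24 of the heterozygous counts, and the 3 left without it equal the 3 counts set for the wild-type group, so the heterozygous bound rests on that library. Homozygous replicate 4 and heterozygous replicate 1 had 0 counts as well, so the groups overlapped, and the adjusted p was 0.629 and 0.791 in edgeR. Its highest level, in homozygous replicate 1, was 1.60 CPM, where Rpl39 was at 28.6 CPM. None of its 50-base stretches occurred in another gene.

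The remaining like-named genes were low. Rpl37rt ran from 2.76 to 7.95 CPM beside 132 to 276 for Rpl37, and Rps3a2 from 5.08 to 7.69 beside 204 to 341 for Rps3a1. Rpl32l ran from 0.327 to 1.11 and Rpl6l from 0.109 to 0.647 CPM, beside 263 to 524 for Rpl32 and 70.9 to 141 for Rpl6. Rps3a3 had 0, 5, 4 and 0 counts in homozygous, 2, 5 and 2 in heterozygous and 1, 0 and 3 in wild-type libraries, and Rps23rg1 0, 9, 0 and 3 counts in homozygous, 4, 3 and 0 in heterozygous and 0, 0 and 0 in wild-type libraries. Since 90.2% of the 50-base stretches of Rps3a2 and 91.02% of those of Rpl37rt occur in other genes, reads of these genes and of their parents may not have been separated.

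**Figure D5:**
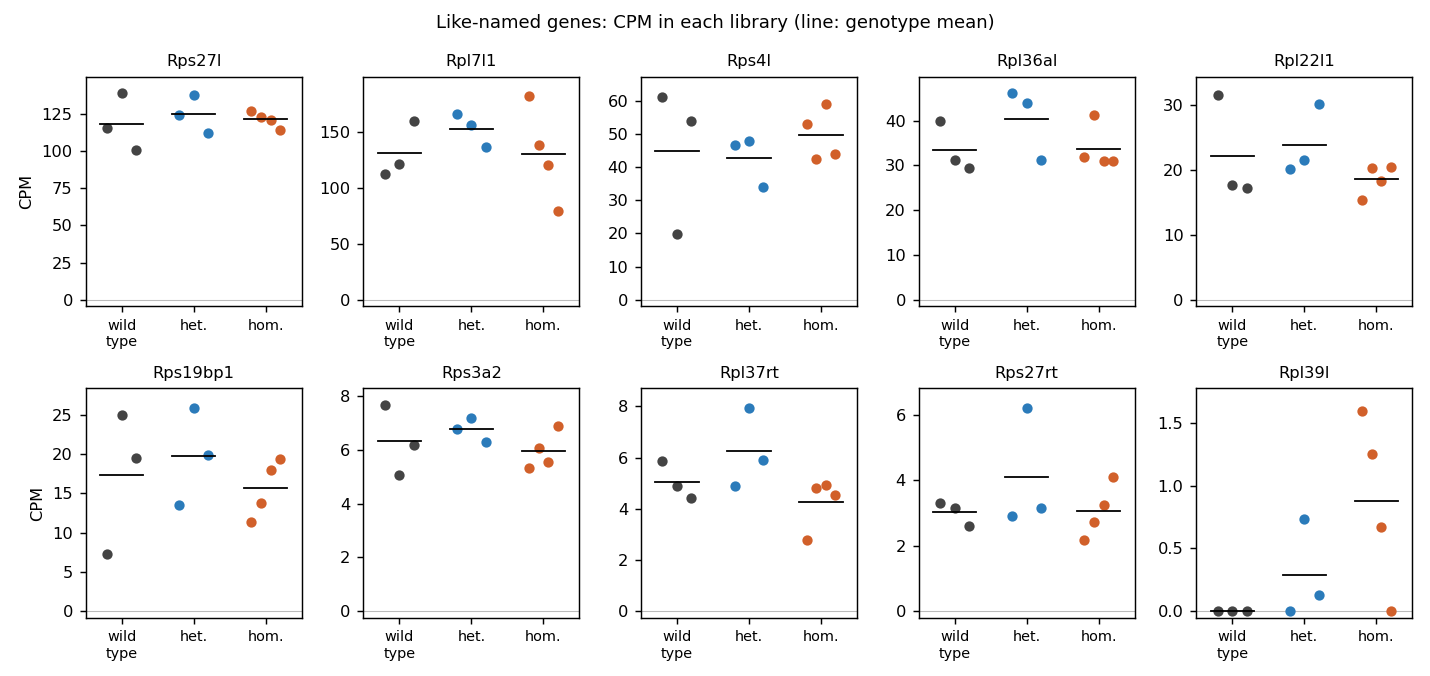
CPM of 10 like-named genes (1 panel each, y axes starting at 0 and differing in scale) in each library by genotype, het. for heterozygous and hom. for homozygous, with the genotype mean as a line. Rpl39l is at 0 in the 3 wild-type libraries, Rps27l lies between 100.7 and 139.5 in every library, and Rpl7l1 spans 79.2 to 182 within the homozygous group.

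Other genes of the translation machinery were taken from lists. The 26 translation factors and other TOP transcripts, which include Fau, summed to 3210, 3631, 4043 and 4197 CPM in homozygous, 4179, 5141 and 4630.0 in heterozygous and 4838, 3922 and 3970.0 in wild-type libraries. Homozygous replicate 1 and heterozygous replicate 2 were again the lowest and the highest. Their median log2 fold change was -0.29 in homozygous against heterozygous libraries (22 of 26 fitted lower), -0.11 against wild type (20 fitted lower) and 0.15 in heterozygous against wild-type libraries (10 fitted lower). edgeR called 0 in each comparison. At an unadjusted p under 0.05 it had 3 lower, 3 lower and 2 higher of 26, where 2.20%, 2.96% and 3.42% of all genes were. The median against wild type turned to 0.015 in homozygous libraries without wild-type replicate 1, and that in heterozygous libraries was 0.038 without heterozygous replicate 2. Eef1a1, the factor that delivers aminoacyl-tRNA, was at 948, 1124, 1302 and 1399.8 CPM in homozygous, 1283, 1816 and 1522 in heterozygous and 1544, 1211 and 1306 in wild-type libraries. Eef2, which moves the ribosome along the mRNA, was at 328, 299.5, 435 and 354 CPM in homozygous, 429, 436 and 415 in heterozygous and 462, 426 and 439 in wild-type libraries.

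In homozygous against heterozygous libraries, lists of genes that build ribosomes, serve the mitochondrial ribosome or signal growth had medians nearer 0 than the members. The 42 ribosome biogenesis genes had a median of -0.03 in homozygous against heterozygous libraries, with 22 fitted lower, 0 called and 1 at an unadjusted p under 0.05. Their sum ran from 1571 to 1864 CPM over all libraries. The 79 tested genes of mitochondrial ribosomal proteins had a median of -0.05 (48 fitted lower, 0 called, 1 at an unadjusted p under 0.05), and the 19 genes of growth signalling around mTOR a median of -0.03 (10 fitted lower, 0 called, 1 at an unadjusted p under 0.05). In each of these 3 lists the gene at that threshold in edgeR was lower, where 2.20% of all genes were. Larp1, which binds TOP mRNAs, was at 94.3, 50.5, 86.8 and 85.5 CPM in homozygous, 71.2, 85.9 and 109 in heterozygous and 109.9, 110.2 and 49.7 in wild-type libraries. The sign of these 3 medians turned with single libraries: that of biogenesis ran up to 0.040 (without homozygous replicate 3; also higher than 0 without heterozygous replicate 1 or 2), that of the mitochondrial ribosome up to 0.051 (without heterozygous replicate 1; also without replicate 2) and that of growth signalling up to 0.18 (without heterozygous replicate 4; also without heterozygous replicate 1 or homozygous replicate 2). The other comparisons did not show the same order, since biogenesis had a median of 0.19 in heterozygous against wild-type libraries and growth signalling one of -0.13 in homozygous against wild-type libraries. The difference between these lists and the members was not tested.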

How the data were processed

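Macrophages of 10 libraries were compared by the genotype in the labels. The authors deposited whole-number read counts per gene symbol, which were not normalized. Per the submitters' processing notes the tools were bcl2fastq 2.20, STAR 2.7.8a and featureCounts 2.0.2. Neither a genome build or annotation nor the strand setting or treatment of multi-mapping reads is given in the sources used here. Overlapping and antisense genes cannot be told apart, since the labels' protocols name a SMARTer kit, which does not mark strand.

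Low genes were removed with filterByExpr, set to a minimum count of 10 and a total of 15 with genotype as the group, leaving genes with 99.9% of counts, and scaled by TMM to CPM per 1000000. The test was edgeR 4.0.16's quasi-likelihood test with robust estimation in R 4.3.3, on all 10 libraries and no term but genotype. Benjamini-Hochberg adjustment ran over 14023 genes, and calls needed an adjusted p under 0.05. Each SE is the size of the log2 fold change over the root of its F value. Deviations between libraries use log2 CPM with a prior count of 2. Alternatives were DESeq2 1.42.0, limma-voom (limma 3.58.1), other scaling and filters, estimation that was not robust, a term for the replicate number or for the letter in the titles, fits on 2 genotypes alone, and leaving out 1 library at a time. The script was tested on simulated data.

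mRNA length was that of the shortest complete principal transcript in GENCODE vM21, in which 90 of 91 members had one. This rule replaced 2 earlier ones after levels per kb had been seen. The 50-base stretches, the sharing classes and the motifs were also chosen after the data or the start sequences had been seen.

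Members and gene lists were chosen with earlier results of these data known. Named genes are the 5 highest and lowest tested members per kb, the 5 members with the smallest p in each direction, members with set roles, like-named genes, members with a library apart in a group of 4, and abundant list members. Rpl24, Rpl23a, Rpl13a, Rps20 and Rpl5 as the lowest canonical genes, the members named for groups that do not overlap, and those closest to and furthest from the common movement were named after their values were seen. Some genes that this rule names are not reported here, though they stay in every count and median. Folds against 0 counts are bounds, set against 3 counts in the whole group; they cover counting error only, because amplified reads that carry no molecular identifier are not separate molecules. Tables and figures used Python 3.11.15, pandas 2.3.3 and matplotlib 3.10.9.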

Additional observations from a re-analysis of the deposited data

Results flagged for a closer look

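Within the homozygous group of 4, a single library stood apart from the other 3 in 5 of the 91 members, by the gap to its nearest neighbour as a share of the group's range. Chance flags about 1 in 20 groups, so a count of this size is near 1 in 20. Homozygous replicate 1 was low for 4 of them: Rpl7a at 60.6 CPM (others 84.4 to 85.8), Rps21 at 56.3 (others 77.0 to 79.8), Rpl28 at 67.7 (others 88.0 to 89.3) and Rpl37rt at 2.76 (others 4.55 to 4.92). Homozygous replicate 2 was high for Rpl36al at 41.2 CPM (others 30.9 to 31.8). The groups of 3 cannot be examined this way.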

How the results depend on the processing

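The number of called members was 0 in each comparison under every alternative run. Other scaling and other sets of symbols moved the summed CPM of each genotype by less than its SD. Leaving out 1 library cannot move a group's mean by as much as its SD, so only the values are given. They ran from 12274 to 13867 (homozygous), from 14847 to 16933 (heterozygous) and from 12761 to 14703 CPM (wild type). Leaving out 1 library moved the member median from -0.18 to 0.05 in homozygous against wild type, from 0.07 to 0.31 in heterozygous against wild type and from -0.39 to -0.19 in homozygous against heterozygous. With the replicate number as a block the medians were -0.14, 0.14 and -0.28 and the members at an unadjusted p under 0.05 were 0, 0 and 1. The 8 same-numbered pairs correlated at -0.01 to 0.03, and 0 of them over 0.1, while the 25 other pairs correlated at -0.05 to 0.05. These values show no pairing by number. They cannot exclude one, since heterozygous replicate 2 and wild-type replicate 1, both high for the members, also correlated at only -0.006.

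Fold changes of single members were followed across the alternatives only for those picked by the naming rule, so further members changed sign: without wild-type replicate 1, 30 of 89 were fitted lower in homozygous against wild type, instead of 77. Those followed that changed sign, none of them called, had these log2 fold changes. In the block fit Rps14 was at -0.012 in homozygous against wild type and Rps4l at 0.27 in heterozygous against wild type, and Rps4l was at 0.13 there in limma-voom. With a library left out, homozygous against wild type ran from -0.051 to 0.14 for Rps14, from -0.22 to 0.44 for Rps4l, from -0.014 to 0.19 for Rpl35a and from -0.011 to 0.15 for Rpl26. Heterozygous against wild type ran from -0.26 to 0.10 for Rps16, from -0.18 to 0.22 for Rps4x, from -0.43 to 0.22 for Rps4l and from -0.18 to 0.14 for Rpl21. The cause was not tested.

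Levels per kb depend on the transcript taken as the mRNA, a choice made after the data had been seen. With the longest principal transcript at the best support level, the canonical median was 187 and the lowest gene Rps15a at 15.6 CPM per kb (5179 bases). With the shortest complete one at the best support level they were 203 and 15.7 (5130 bases). As reported, Rps15a has 640 bases and 126 CPM per kb, and the span is 73.6-fold instead of 103-fold and 102-fold.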

Other observations

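Of the 307 symbols with the suffix -ps that the symbol rule leaves out, 188 had a count in at least 1 library. Their counts came to 0.603% to 0.733% of the members' counts in every library. Among the 13 mitochondrially encoded protein-coding genes, mt-Co2, mt-Atp8, mt-Atp6 and mt-Co3 had 10, 5, 1 and 2 counts over all 10 libraries, while mt-Co1 had 301794 and mt-Cytb 347298. mt-Nd4l had 15 counts and mt-Nd3 929.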
